A study of Homo sapiens with 12 samples.

Results

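The 10 genes described here make ceramide and pass it on to its main complex lipids: SPTLC1, SPTLC2, KDSR, CERS2, CERS4, CERS5, CERS6, DEGS1, SGMS1 and UGCG. They were taken by symbol from a table of 57152 genes with values, as a group of 1 pathway proposed with earlier results of these data known, and all 10 passed the filter on low values that left 13968 genes to test. The study read RNA of A549, an established line from a human lung adenocarcinoma, and of LB, a line that the labels trace to A549 without saying how it was made. The 12 libraries form 4 groups of 3. A549 DMSO and LB DMSO are the 2 lines with vehicle (0.1% DMSO), LB amiodarone is the LB line with 10 µM amiodarone, and LB amiodarone plus HPbCD is the LB line with 10 µM amiodarone and 10 mg/ml HPbCD. HPbCD was present from seeding, and drug or vehicle was added after 24 h for another 24 h. The design has A549 cells with vehicle alone, and HPbCD was given together with amiodarone in every library here that received it, so what HPbCD does without the drug was not analysed here. Nothing in the labels says that the 3 libraries of a group came from separate cultures, so every p-value measures the spread between these libraries, which may be technical.

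Ceramide is built on the endoplasmic reticulum. Serine palmitoyltransferase, whose catalytic core is a dimer of SPTLC1 and SPTLC2, joins serine to palmitoyl-CoA, KDSR reduces the product to sphinganine, a ceramide synthase adds a fatty acyl chain, and DEGS1 introduces the double bond that turns dihydroceramide into ceramide. In the Golgi, SGMS1 converts ceramide to sphingomyelin, while UGCG adds glucose and opens the way to the glycosphingolipids. Sphingomyelin is a lipid of lung surfactant as well as of the plasma membrane, where it associates with cholesterol. Amiodarone is an antiarrhythmic drug known to collect in lysosomes and to cause phospholipid storage, and HPbCD, hydroxypropyl-beta-cyclodextrin, is a ring of sugars that carries cholesterol out of membranes.

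Each value is a TPM, a share of all transcripts corrected for transcript length, so levels can be set beside each other between genes. Differences are on the scale of log2(TPM + 1) and come from limma with Benjamini-Hochberg adjustment over the 13968 genes, and "rose" and "fell" are used at an adjusted p under 0.05. Within groups the libraries correlated at 0.985 to 0.989 over the tested genes, and libraries of different groups at 0.943 to 0.986. Between 5.38 and 9.19% of a library's TPM came from mitochondrially encoded genes, with overlapping ranges in the 4 groups. LB DMSO, at 6.727 to 8.41%, and both agents, at 5.38 to 6.730%, overlapped only just. Of all genes with an adjusted p under 0.05 by limma between those 2 groups, 56.3% were higher with both agents. Without the mitochondrially encoded genes the share was 48.6%. The epithelial marker sum was 7254 to 7791 TPM in A549 DMSO and 2561 to 3223 TPM over the LB libraries. The sum of 9 alveolar type II markers was 22.3 to 22.7 TPM in A549 DMSO and 1166 to 1579 TPM over the LB libraries. SFTPC, SFTPB, SFTPD and ABCA3 made up nearly all of the LB sum. NKX2-1, SFTPA1 and SFTPA2, 3 of the 9, stayed under 0.5 TPM in every library. LAMP3, at 0.19 to 0.57 TPM, and NAPSA, at 1.3 to 3.88 TPM over the 12 libraries, overlapped between the lines. The sum of 4 alveolar type I markers was 265 to 344 TPM in A549 DMSO and 94.6 to 154 TPM over the LB libraries. CAV1 alone read 262 to 341 TPM in A549 DMSO and 91.9 to 150 TPM over the LB libraries. PDPN and AQP5 stayed under 0.5 TPM in every library, and AGER, at 1.69 to 4.16 TPM over the 12 libraries, overlapped between the lines. Fibroblast and endothelial marker sums were at most 9.91 and 0.88 TPM. The sum of 5 leukocyte markers was 15.6 to 16.4 TPM in A549 DMSO, 28.1 to 30.0 in LB DMSO, 33.6 to 40.6 with amiodarone and 82.2 to 86.6 with amiodarone plus HPbCD. CD68, which also encodes a lysosomal membrane protein, made up 81.2 to 85.6 TPM of that last range, and PTPRC, CD3E and LYZ stayed under 0.5 TPM in every library.

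Amiodarone plus HPbCD roughly doubled UGCG and CERS4 and raised KDSR over LB DMSO, while the other 7 genes did not pass the test in that comparison. Of the 10 genes, 3 rose (UGCG, CERS4 and KDSR) and 0 fell, where 10.1% of all tested genes rose and 7.81% fell. With amiodarone alone, CERS4 rose and none fell, where 4.9% of all tested genes rose and 3.72% fell. Adding HPbCD to amiodarone moved 0 of the 10 past the test by limma, where 2.71% of all tested genes rose and 1.36% fell. At an unadjusted p under 0.05 by limma were 2 of the 10 (UGCG and KDSR) and 2508 of the 13968 tested genes. Between the lines without drug, 1 gene (CERS2) was higher in LB DMSO and 3 (SPTLC1, SPTLC2 and SGMS1) were lower, where 14.2% of all tested genes were higher and 18.2% lower.

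The median difference of the 10 genes was -0.11 between the lines, 0.15 with amiodarone, -0.03 for the addition of HPbCD to amiodarone and 0.08 for both agents against LB DMSO. Over all tested genes the medians were -0.04, -0.0027, -0.0081 and -0.02 in the same order. The LB DMSO libraries serve in 3 of these 4 comparisons and the amiodarone libraries in 2, so the comparisons are not independent of each other. In the bulk RNA used here, a lower level in every cell and fewer cells with the transcript cannot be told apart.

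**Figure D1:**
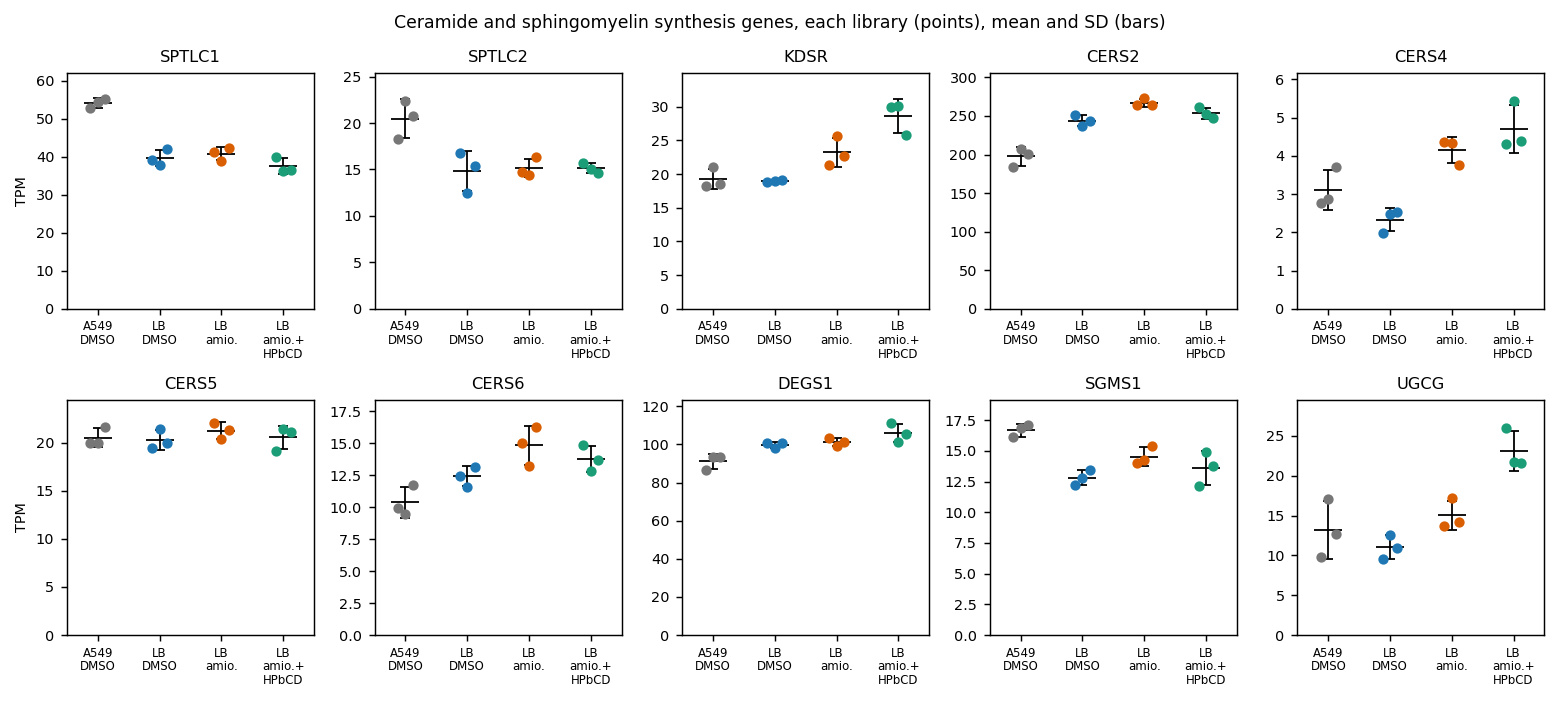
TPM of the 10 ceramide and sphingomyelin synthesis genes in each of the 12 libraries (points), with the group mean and SD (bars). Each panel has its own axis from 0. SPTLC1, SPTLC2 and SGMS1 are highest in the 3 A549 libraries, and KDSR and UGCG are highest in the 3 libraries with amiodarone plus HPbCD.

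**Figure D2:**
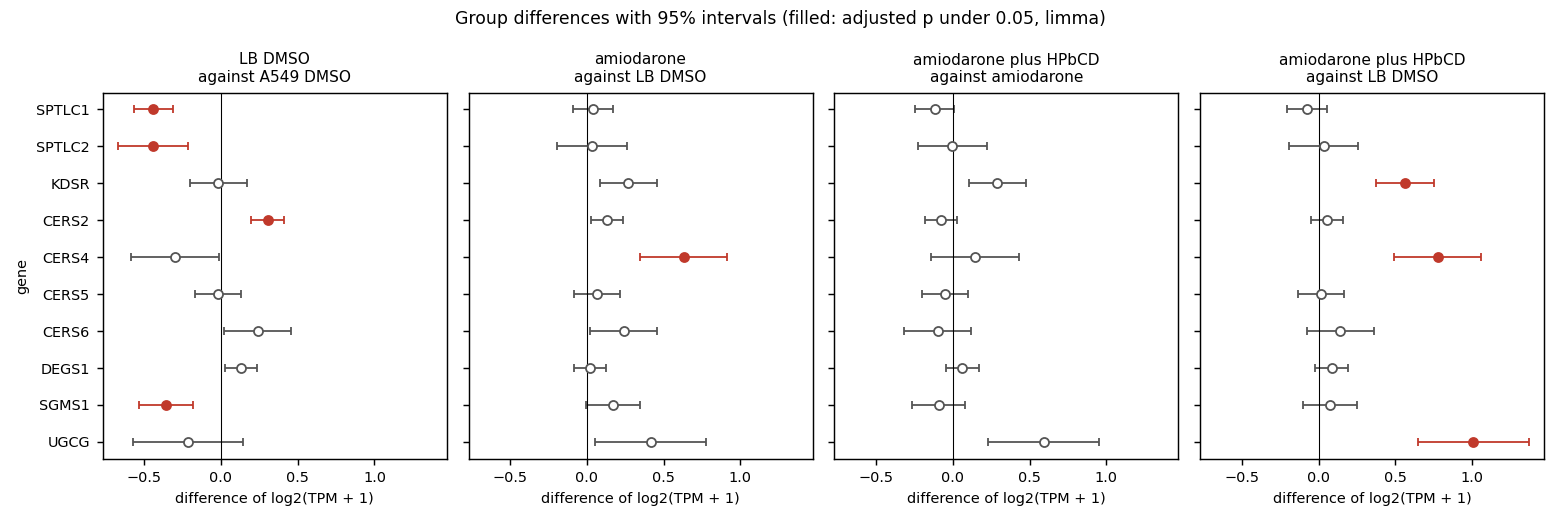
Difference of log2(TPM + 1) with its 95% interval for each of the 10 genes in the 4 comparisons. Filled points have an adjusted p under 0.05 by limma, 4 between the lines, 1 with amiodarone, 0 for HPbCD added to amiodarone and 3 for both agents against LB DMSO.

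CERS2, DEGS1 and SPTLC1 were, in that order, the 3 most abundant of the 10 transcripts in every group, and CERS4 was the lowest in every group. In LB DMSO, CERS2 had a mean of 244 ± 7.62 TPM (SD, n = 3), DEGS1 99.9 ± 1.64 and SPTLC1 39.7 ± 2.06, and these 3 ranges lay apart. The middle of the order could not be resolved everywhere. In A549 DMSO the ranges of CERS5, SPTLC2 and KDSR overlapped around 20 TPM, and UGCG overlapped both its neighbours, SGMS1 and CERS6. In LB DMSO SPTLC2, SGMS1, CERS6 and UGCG formed a chain in which each overlapped the next. With amiodarone SPTLC2, UGCG, CERS6 and SGMS1 could not be ordered, at means of 15.2, 15.0, 14.9 and 14.5 TPM. UGCG held place 8 of 10 in A549 DMSO, 9 in LB DMSO, 7 with amiodarone and 5 with amiodarone plus HPbCD, where it overlapped KDSR above it and lay apart from CERS5 below it.

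The first step of the pathway differed between the lines. SPTLC1, on the minus strand of chromosome 9 (GRCh38, chr9:92000087-92115384), read 52.8, 54.6 and 55.1 TPM in A549 DMSO and 39.2, 38.0 and 42.0 TPM in LB DMSO. All 3 LB libraries lay below all 3 A549 libraries. The mean was 0.733 of the A549 mean, a difference of -0.44 ± 0.059 (SE; 95% interval -0.57 to -0.31; adjusted p = 0.000116 by limma). SPTLC2, on the minus strand of chromosome 14 (GRCh38, chr14:77505997-77616773), read 18.2, 22.4 and 20.8 TPM in A549 DMSO and 16.7, 12.5 and 15.3 TPM in LB DMSO, again without overlap. Its mean in LB DMSO was 0.726 of that in A549 DMSO, a difference of -0.44 ± 0.10 (95% interval -0.67 to -0.21; adjusted p = 0.00606 by limma). The catalytic partners were therefore lower by nearly the same factor, and SPTLC1 over SPTLC2 was 2.66 ± 0.228 (SD, n = 3) in A549 DMSO and 2.7 ± 0.347 in LB DMSO.

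Neither agent moved the pair past the test. With amiodarone SPTLC1 read 41.3, 38.9 and 42.3 TPM and SPTLC2 14.7, 14.5 and 16.3 TPM. With amiodarone plus HPbCD SPTLC1 read 39.9, 36.2 and 36.7 TPM and SPTLC2 15.7, 15.1 and 14.6 TPM. Every one of these ranges overlapped the LB DMSO range of the same gene. Against LB DMSO the 95% intervals with amiodarone ran from -0.09 to 0.17 for SPTLC1 and from -0.19 to 0.26 for SPTLC2.

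The upstream stretches of the subunit genes and of UGCG, the gene with the largest rise among the 10, are printed here. Of the windows held, only theirs had a long enough stretch before the gene start. The printed stretches were not chosen by result. The stretches are RefSeq sequence (GRCh38.p14), written 5′ to 3′ on the gene's own strand. Each runs from the start of the table's window to the base before the GENCODE 29 gene start. Capitals mark a GC box (GGGCGG) or a CCAAT box (CCAAT) read on either strand. In SPTLC1 a pair of GC boxes, both in the reverse orientation, overlap in 1 run of capitals.
SPTLC1 (chr9:92115385-92115663, minus strand): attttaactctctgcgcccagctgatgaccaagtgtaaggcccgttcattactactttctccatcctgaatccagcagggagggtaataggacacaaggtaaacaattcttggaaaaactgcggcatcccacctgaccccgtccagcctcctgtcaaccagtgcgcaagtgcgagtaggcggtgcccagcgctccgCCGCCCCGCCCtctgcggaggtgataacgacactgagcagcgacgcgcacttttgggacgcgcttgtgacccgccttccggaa
SPTLC2 (chr14:77616774-77616887, minus strand): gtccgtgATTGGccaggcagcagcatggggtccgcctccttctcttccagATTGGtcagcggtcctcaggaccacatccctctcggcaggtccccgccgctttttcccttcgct
UGCG (chr9:111896564-111896765, plus strand): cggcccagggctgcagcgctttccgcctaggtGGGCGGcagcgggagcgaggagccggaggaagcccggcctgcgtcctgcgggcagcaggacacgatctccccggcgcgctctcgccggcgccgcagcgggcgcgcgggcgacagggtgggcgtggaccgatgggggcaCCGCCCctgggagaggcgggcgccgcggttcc

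Windows of 300 bases around the start, 9 in all, were held for 8 of the 10 genes, with 2 for DEGS1. A GC box was present in 8 of the 9, all but 1 window of DEGS1, and in 45.0% of the 35116 windows of the table. A CCAAT box was present in 2 of the 9, those of CERS6 and SPTLC2, and in 34.6% of all windows. The E-box CACGTG and the sterol regulatory element TCACNCCAC had no match in the 9, with 7.26% and 1.13% of all windows holding 1. A match describes the letters in the window and nothing more.

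KDSR, which encodes 3-ketodihydrosphingosine reductase (chr18:63327726-63367510, minus strand), rose with the 2 agents together. It read 18.9, 19.0 and 19.2 TPM in LB DMSO, 21.4, 25.6 and 22.7 TPM with amiodarone and 30.0, 30.2 and 25.7 TPM with amiodarone plus HPbCD. The 3 LB groups did not overlap. Against LB DMSO it rose 1.51-fold with both agents, a difference of 0.56 ± 0.086 (95% interval 0.38 to 0.75; adjusted p = 0.000743 by limma, higher in 3 of 3 libraries). Each single step stayed short of the threshold, at 0.27 ± 0.086 for amiodarone (adjusted p = 0.0725 by limma) and 0.29 ± 0.086 for the addition of HPbCD (adjusted p = 0.0875 by limma). A549 DMSO, at 18.3, 21.1 and 18.5 TPM, overlapped LB DMSO.

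Among the ceramide synthases, which differ in the acyl chains they prefer, CERS2 carried most of the transcript. CERS2, the enzyme of very long acyl chains (chr1:150960583-150975004, minus strand), read 184, 208 and 200 TPM in A549 DMSO and 252, 236 and 244 TPM in LB DMSO. The lines did not overlap, and LB DMSO was 1.24-fold higher, a difference of 0.31 ± 0.048 (95% interval 0.20 to 0.41; adjusted p = 0.000406 by limma). With amiodarone it read 264, 273 and 264 TPM, above LB DMSO in all 3 libraries but not past the test (0.13 ± 0.048, adjusted p = 0.125 by limma). With amiodarone plus HPbCD it read 262, 252 and 247 TPM, below amiodarone alone in all 3 libraries (-0.07 ± 0.048, adjusted p = 0.462 by limma). The 3′ part of CERS2 overlaps SETDB1 on the opposite strand, and the labels do not say whether the authors' quantification used the strand.

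CERS4 (chr19:8206736-8262421, plus strand), which prefers long acyl chains, was the only one of the 10 to rise with amiodarone. It read 1.99, 2.47 and 2.54 TPM in LB DMSO, 4.37, 4.33 and 3.76 TPM with amiodarone and 4.31, 5.43 and 4.38 TPM with amiodarone plus HPbCD. All 6 treated libraries lay above all 3 LB DMSO libraries. The rise with amiodarone was 1.78-fold (0.63 ± 0.13, 95% interval 0.34 to 0.92; adjusted p = 0.0119 by limma), and without LB DMSO replicate 1, the lowest library, it was 0.55 with an adjusted p of 0.0516. With both agents it was 2.02-fold over LB DMSO (0.77 ± 0.13, 95% interval 0.49 to 1.06; adjusted p = 0.00153 by limma). Its levels are low, so the added 1 TPM shrinks these log2 differences, and an antisense gene lies over it on the minus strand. A549 DMSO read 2.76, 2.86 and 3.72 TPM, above LB DMSO in all 3 libraries (difference of LB DMSO -0.30 ± 0.13, adjusted p = 0.102 by limma).

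CERS5 and CERS6, both known for palmitoyl ceramide, passed no test. CERS5 (chr12:50129306-50167533, minus strand) was the steadiest of the 10, from 19.1 to 22.1 TPM over all 12 libraries. Its differences lay between -0.05 and 0.06 in the 4 comparisons. An antisense gene lies over most of CERS5, and antisense genes also overlap KDSR and SGMS1. CERS6 (chr2:168455862-168775137, plus strand) read 9.94, 9.48 and 11.8 TPM in A549 DMSO, 12.5, 11.6 and 13.2 TPM in LB DMSO, 15.0, 13.3 and 16.3 TPM with amiodarone and 14.9, 12.8 and 13.7 TPM with both agents. The A549 and LB DMSO ranges overlapped by 1 library on each side (0.24 ± 0.10, adjusted p = 0.0878 by limma), and the amiodarone range lay just above LB DMSO (0.24 ± 0.10, adjusted p = 0.172 by limma).

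The composition of the ceramide synthase transcripts moved little. CERS2 made up 84.2 ± 0.918% (SD, n = 3) of the summed TPM of CERS1 to CERS6 in A549 DMSO, 85.9 ± 0.805% in LB DMSO, 84.6 ± 0.857% with amiodarone and 84.3 ± 0.485% with both agents. CERS5 made up 8.77 ± 0.481% in A549 DMSO and 7.15 ± 0.512% in LB DMSO, without overlap. CERS4 made up 0.823 ± 0.119% in LB DMSO, 1.32 ± 0.101% with amiodarone and 1.57 ± 0.215% with both agents, above LB DMSO in every library. CERS1, which prefers stearoyl chains, took 1.77 ± 0.356% in LB DMSO and 2.64 ± 0.305% with amiodarone. CERS3, best known from skin, was listed at no more than 0.08 TPM in any library. The summed TPM was 234 ± 12.5 in A549 DMSO, 284 ± 6.22 in LB DMSO, 316 ± 3.31 with amiodarone and 301 ± 7.27 with both agents. These are shares of transcripts and carry no measure of enzyme or lipid.

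**Figure D3:**
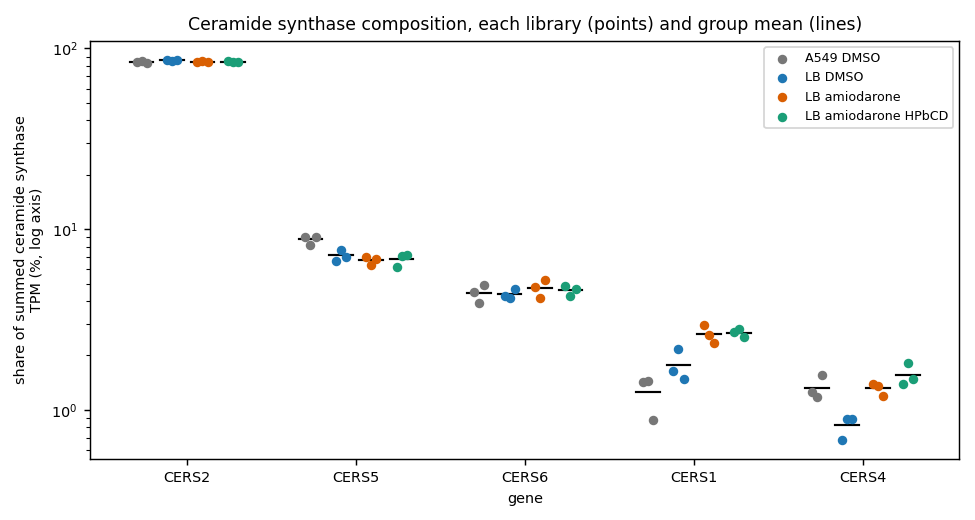
Share of each ceramide synthase in the summed TPM of CERS1 to CERS6, in percent on a log axis, for each library (points) and group mean (lines). CERS3, at most 0.08 TPM, is not drawn. CERS2 stays between 83.6 and 86.7% in all 12 libraries, and CERS4 is lowest in the 3 LB DMSO libraries.

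DEGS1, the desaturase that completes ceramide (chr1:224175756-224193441, plus strand), was abundant and nearly level. It read 86.7, 93.6 and 93.4 TPM in A549 DMSO and 101, 98.0 and 101 TPM in LB DMSO. The LB libraries were higher without overlap, by 1.09-fold (0.13 ± 0.048, adjusted p = 0.0568 by limma). Under median-of-ratios scaling DEGS1 and CERS6 both passed the test (adjusted p = 0.0214 and 0.0447 by limma). The 10 genes then split into 3 higher and 3 lower between the lines in place of 1 and 3. The scaling moved all genes too. Of all those past the test between the lines, 51.8% were then higher in LB DMSO, against 43.7% in the main fit. With amiodarone DEGS1 read 103, 99.4 and 101 TPM and with both agents 111, 102 and 105 TPM. Neither passed the test against LB DMSO, with 95% intervals of -0.08 to 0.13 and -0.02 to 0.19.

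At the branch point stand SGMS1, for the sphingomyelin route, and UGCG, for the glucosylceramide route. SGMS1 (chr10:50305586-50625163, minus strand) read 16.1, 16.9 and 17.1 TPM in A549 DMSO and 12.2, 12.8 and 13.4 TPM in LB DMSO. It was 0.769 of the A549 level in LB DMSO, with no overlap (-0.36 ± 0.081, 95% interval -0.53 to -0.18; adjusted p = 0.00474 by limma). With amiodarone it read 14.0, 14.2 and 15.4 TPM, above LB DMSO in 3 of 3 libraries but not past the test (0.17 ± 0.081, adjusted p = 0.236 by limma). With both agents it read 12.2, 14.9 and 13.8 TPM, a range that overlapped both other LB groups (0.08 ± 0.081 against LB DMSO, adjusted p = 0.563 by limma).

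UGCG (chr9:111896766-111935369, plus strand) read 9.58, 12.6 and 10.9 TPM in LB DMSO, 13.8, 17.2 and 14.1 TPM with amiodarone and 26.1, 21.7 and 21.6 TPM with amiodarone plus HPbCD. The 3 LB groups lay in that order without overlap. With both agents it rose 2.10-fold over LB DMSO (1.01 ± 0.17, 95% interval 0.65 to 1.37; adjusted p = 0.00126 by limma), the largest difference of the 10 genes in any of the 4 comparisons. The single steps did not pass the test, at 0.42 ± 0.17 for amiodarone (adjusted p = 0.151 by limma) and 0.59 ± 0.17 for the addition of HPbCD (95% interval 0.23 to 0.95; adjusted p = 0.0712 by limma). A549 DMSO was spread most widely, at 9.81, 17.1 and 12.6 TPM, and overlapped both LB DMSO and LB amiodarone. In a fit of the LB libraries alone, chosen after seeing the data, the addition of HPbCD gave the same difference with an adjusted p of 0.0197. With 1 library left out, the adjusted p was 0.0344 without A549 DMSO replicate 1 and 0.0217 without A549 DMSO replicate 2, and above the threshold without any 1 of the other 10 libraries, up to 0.223.

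Set against each other, UGCG was 0.859 ± 0.108 of SGMS1 (SD, n = 3) in LB DMSO, 1.04 ± 0.150 with amiodarone and 1.72 ± 0.369 with amiodarone plus HPbCD. The 3 ratios with both agents, 1.46 to 2.14, lay above all others, whose highest was 1.21. With the second sphingomyelin synthase, SGMS2, added to SGMS1, the ratio was 0.551 ± 0.0850 in LB DMSO and 1.02 ± 0.170 with both agents. In A549 DMSO UGCG was 0.787 ± 0.205 of SGMS1, overlapping LB DMSO.

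The other genes of the pathway were read from 9 lists of 69 genes, of which 57 were high enough to test. Between the lines 21 of the 57 were higher and 9 lower in LB DMSO, where 14.2% of all tested genes were higher and 18.2% lower. With amiodarone 17 rose and 1 fell, where 4.9% of all tested genes rose and 3.72% fell. When HPbCD was added to amiodarone 4 rose and 2 fell, where 2.71% of all tested genes rose and 1.36% fell. With both agents against LB DMSO 21 rose and 4 fell, where 10.1% of all tested genes rose and 7.81% fell. The medians of the 57 were 0.09, 0.14, -0.02 and 0.17. For amiodarone the 18 genes past the test became 11 without LB DMSO replicate 1. For HPbCD added to amiodarone the 6 became 3 without LB amiodarone replicate 1 or without any 1 of the 3 libraries with both agents.

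**Figure D4:**
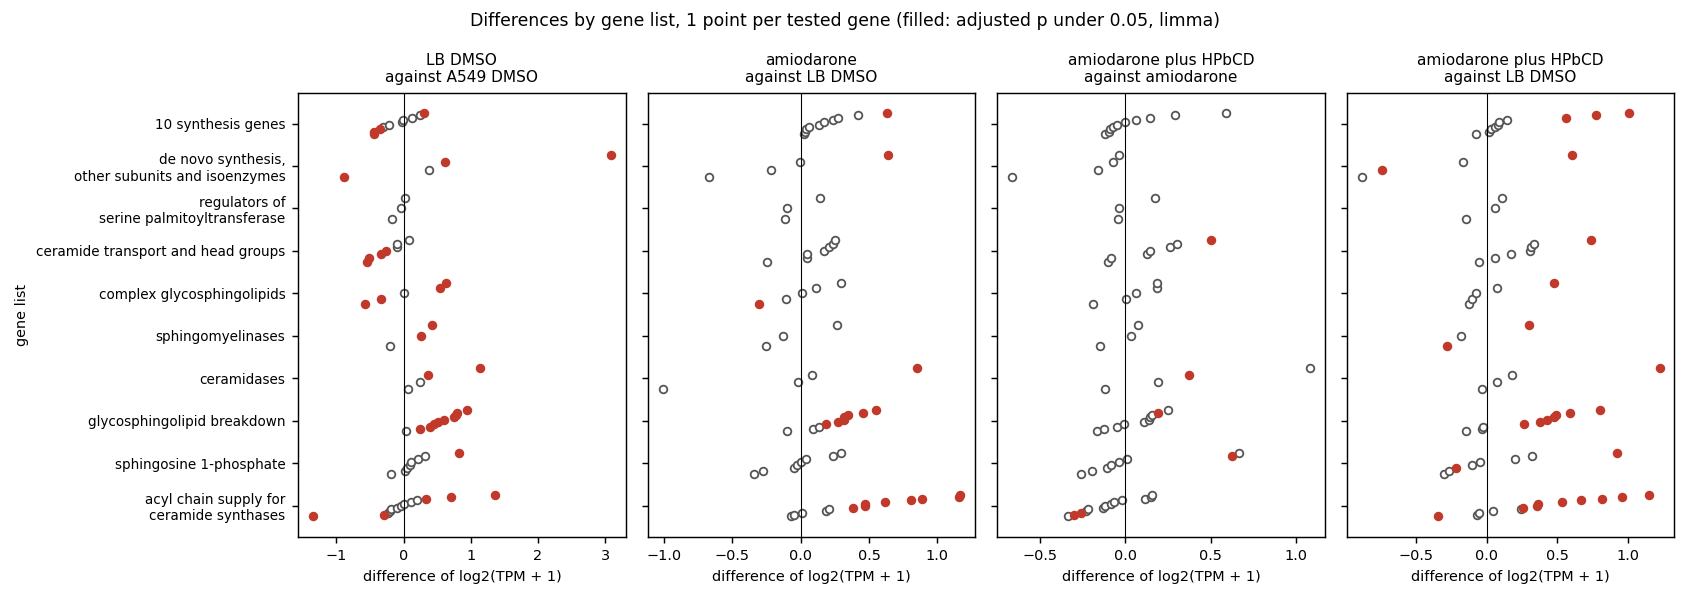
Difference of log2(TPM + 1) for every tested gene of the 10 synthesis genes and of 9 lists of other sphingolipid and acyl chain genes, 1 point per gene, in the 4 comparisons. Filled points have an adjusted p under 0.05 by limma. Glycosphingolipid breakdown lies mostly to the right of 0 in LB DMSO against A549 DMSO and with both agents against LB DMSO, and acyl chain supply reaches furthest to the right with amiodarone.

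Of the other subunits and isoenzymes of synthesis, SPTSSB, a small subunit that widens the chain length choice of serine palmitoyltransferase, separated the lines most. The 3 A549 libraries list it at 0, 0 and 0.14 TPM, where those of LB DMSO have 6.23, 5.47 and 13.9 TPM (adjusted p = 4.01e-05 by limma). SPTLC3, an alternative to SPTLC2, was too low to test, at 0.31 to 2.23 TPM. CERS1 read 3.14, 3.53 and 2.12 TPM in A549 DMSO, 4.79, 6.02 and 4.21 TPM in LB DMSO and 9.32, 8.28 and 7.39 TPM with amiodarone. It was higher in LB DMSO by 0.62 ± 0.15 (adjusted p = 0.0078 by limma) and rose with amiodarone by 0.64 ± 0.15 (adjusted p = 0.023 by limma). The second call was lost without LB DMSO replicate 1, LB DMSO replicate 3, LB amiodarone replicate 1 or LB amiodarone replicate 2, with adjusted p up to 0.0928 by limma. CERS1 shares its locus with GDF1, itself at 0.32 to 1.37 TPM. DEGS2, an isoenzyme of DEGS1, read 1.96, 3.26 and 3.99 TPM in A549 DMSO and 1.43, 1.02 and 1.03 TPM in LB DMSO. The difference was -0.89 ± 0.20 (adjusted p = 0.00439 by limma). With both agents DEGS2 fell to 0.19, 0.28 and 0.4 TPM (-0.74 ± 0.20 against LB DMSO, adjusted p = 0.0222 by limma). That adjusted p reached 0.0831 with 1 library left out, and these levels are low. ORMDL1, ORMDL2 and ORMDL3, which hold serine palmitoyltransferase in check, had 0 of 3 past the test in each comparison by limma. However, 1 passed between the lines without A549 DMSO replicate 1 or without LB amiodarone replicate 3. At an unadjusted p under 0.05 by limma were 1, 0, 1 and 1 of the 3 in the 4 comparisons. Over all 13968 tested genes these counts were 5899, 3227, 2508 and 4450.

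The gene for ceramide transfer to the Golgi rose when HPbCD was added. COL4A3BP, the gene of the ceramide transfer protein CERT that supplies SGMS1, read 13.6, 14.1 and 14.6 TPM in LB DMSO, 15.0, 17.6 and 17.8 TPM with amiodarone and 25.03, 24.6 and 22.8 TPM with both agents. The 3 groups did not overlap. It rose 1.44-fold when HPbCD was added (0.50 ± 0.076, 95% interval 0.34 to 0.67; adjusted p = 0.00306 by limma). Of the 7 tested genes of ceramide transport and head groups COL4A3BP was the only one past the test in that step. Over all tested genes 2.71% rose and 1.36% fell. At an unadjusted p under 0.05 by limma were 3 of the 7 and 2508 of all 13968. Between the lines 4 of the 7 were lower in LB DMSO and 0 higher, where 18.2% of all tested genes were lower and 14.2% higher. The count of 4 became 2 without A549 DMSO replicate 2, LB DMSO replicate 1 or LB DMSO replicate 2. SGMS2 was among them, at 8.93, 10.9 and 12.7 TPM in A549 DMSO and 7.92, 6.77 and 6.97 TPM in LB DMSO (-0.52 ± 0.13, adjusted p = 0.00712 by limma). GLTP, which carries glycolipids between membranes, was lower too, at 23.2, 22.5 and 25.4 TPM against 16.8, 14.8 and 16.4 TPM (-0.54 ± 0.092, adjusted p = 0.000691 by limma).

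**Figure D5:**
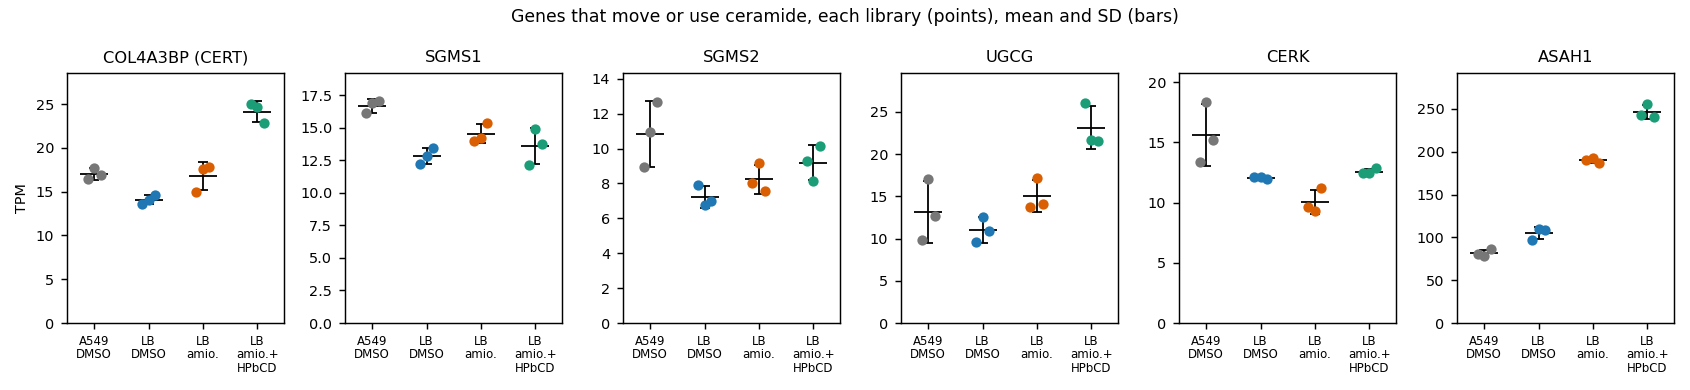
TPM of 6 genes that move or use ceramide in each of the 12 libraries (points), with the group mean and SD (bars), each panel with its own axis from 0. COL4A3BP, UGCG and ASAH1 are highest in the 3 libraries with amiodarone plus HPbCD, while SGMS1 there reads 12.2 to 14.9 TPM, below its 16.1 to 17.1 TPM in A549 DMSO.

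ASAH1, the lysosomal acid ceramidase that breaks ceramide down, had a larger difference from LB DMSO than any of the 10 synthesis genes, with amiodarone and with both agents. On the ratio of means the margin with amiodarone was small, 1.81-fold for ASAH1 and 1.78-fold for CERS4, whose log2 difference the added 1 TPM shrinks. ASAH1 read 97.5, 110 and 108 TPM in LB DMSO, 190, 193 and 187 TPM with amiodarone and 243, 256 and 240 TPM with both agents. The groups were far apart. The rise was 0.85 ± 0.055 with amiodarone (adjusted p = 9.75e-07 by limma) and a further 0.37 ± 0.055 with HPbCD added (adjusted p = 0.00233 by limma). Of the 10 genes of glycosphingolipid breakdown, 9 were higher and 0 lower in LB DMSO than in A549 DMSO. Between these lines 14.2% of all tested genes were higher. With amiodarone 7 of the 10 rose, where 4.9% of all tested genes did, a count that became 3 without LB DMSO replicate 1. With both agents against LB DMSO 7 rose, where 10.1% of all tested genes did. SPHK1, which turns sphingosine into sphingosine 1-phosphate, read 10.8, 11.5 and 10.4 TPM with amiodarone and 17.0, 19.8 and 15.6 TPM with both agents (0.63 ± 0.10, adjusted p = 0.00453 by limma).

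Of 13 tested genes of the acyl-CoA supply of the ceramide synthases, 8 rose with amiodarone and 0 fell, where 4.9% of all tested genes rose and 3.72% fell. The other 5 did not pass the test. The list had a median of 0.47 against -0.0027 for all tested genes. HSD17B12, a reductase of the fatty acid elongation cycle, read 86.5, 79.6 and 101 TPM in LB DMSO and 188, 225 and 185 TPM with amiodarone (1.16 ± 0.094, adjusted p = 8.38e-06 by limma). ACSL4, an acyl-CoA synthetase, read 12.4, 13.7 and 18.3 TPM in LB DMSO and 30.4, 35.7 and 36.3 TPM with amiodarone (1.17 ± 0.13, adjusted p = 0.000122 by limma). ELOVL6, the elongase that extends palmitate, read 29.4, 23.7 and 28.5 TPM and then 43.9, 51.9 and 58.1 TPM (0.89 ± 0.11, adjusted p = 0.000423 by limma). The elongation and acyl-CoA synthetase genes of this list, ACSL4 among them, also serve other lipids than ceramide.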

How the data were processed

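The authors' deposited table gives TPM per gene symbol for the 12 libraries, made on the GRCh38 build with RSEM 1.3.1 and STAR 2.7.3a, per the submitters' processing notes. The annotation release, the strand setting and the read depth are not given in the sources used here, and TPM keeps no depth, so no counting error can be stated and no count model was used. Per the labels' protocols the libraries were stranded mRNA libraries read as 100-bp pairs. RSEM divides reads shared between genes by estimate, so genes with near copies are less certain. Of the table's rows, 37 held no value and were left out, and 0 sample columns were left without a sample.

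Groups came from the labels. Values were taken as log2(TPM + 1). Genes averaging 1 TPM or more across the 12 libraries entered 1 linear model of the 4 groups (8 residual degrees of freedom) in limma 3.58.1, run under R 4.3.3 with its variance trend, two-sided p-values, Benjamini-Hochberg adjustment within each of the 4 comparisons and a threshold of 0.05. The fit was tested on simulated data. Ratios and shares are per library, with no test. The 10 genes and all gene lists were chosen with earlier results of these data known, and they support no count. Named beside the 10 genes were up to 3 genes per list and comparison, those with the largest difference past the test, and genes too low to test. Of these, genes whose call did not survive the loss of any 1 library were mostly passed over, and others were left out for length, both after values were seen. CERT1 was found under its older name COL4A3BP. Some listed genes are not reported here by name. Positions are from GENCODE 29 (GRCh38), promoter sequence from RefSeq (GRCh38.p14). Alternatives were 0.1 or 5 as the pseudocount, no filter or one at an average of 5 TPM, scaling by median-of-ratios factors, quantile normalization, TPM without mitochondrially encoded genes, limma with no trend, robust variance or array weights, a fit of just the 2 groups at hand, a replicate block, leaving out each library, and, added after seeing the data, the LB libraries alone.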

Additional observations from a re-analysis of the deposited data

How the results depend on the processing

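Depth is unknown here, 3 libraries a group set the precision, and a difference of the size of KDSR's single steps can miss the threshold. Over the alternatives, 949 of 986 values of the 10 genes kept their direction and their side of the threshold, 14 passed it newly, 1 no longer did and 22 changed sign. The same was read for the up to 3 genes per list and comparison with the largest difference past the test, some not reported by name. Of their 1225 values, 86 no longer passed and 0 changed sign. Picked for large differences past the test, these genes could not pass newly and were unlikely to change sign. With amiodarone the count of the 10 genes past the test was 0 when genes had to average 5 TPM, which leaves CERS4 untested, and ranged from 0 to 1 when 1 library was left out. For HPbCD added to amiodarone it was 1, UGCG, with array weights (adjusted p = 0.0324), in a fit of only the 2 groups (0.0342), with the replicate block (0.0494) and with the LB libraries alone, and it ranged from 0 to 1 with 1 library left out. UGCG's adjusted p there ran from 0.0197 to 0.223 over all alternatives. Between the lines, the count ran from 4 to 6.

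Counts of all genes past the test were 1204 with amiodarone (630 to 1493 with 1 library left out) and 568 for HPbCD added to amiodarone (282 to 827). Changes of sign concerned differences near 0, and their cause was not tested. Between the lines KDSR was 0.021 with median-of-ratios scaling, 0.052 with quantile normalization, 0.0058 with array weights and -0.051 to 0.045 with 1 library left out, and CERS5 was 0.021, 0.048 and, with 1 library left out, -0.054 to 0.021. For HPbCD added to amiodarone SPTLC2 was 0.0089 with median-of-ratios scaling, 0.014 with quantile normalization, 0.00039 with array weights and -0.034 to 0.048 with 1 library left out, where CERS5 was -0.077 to 0.00026. With amiodarone SPTLC2 was -0.076 to 0.12 with 1 library left out. With both agents against LB DMSO CERS5 was -0.0053 with quantile normalization, -0.0068 without mitochondrially encoded genes and -0.013 to 0.064 with 1 library left out, where SPTLC2 was -0.078 to 0.12.

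The labels do not say whether the replicate numbers pair the libraries. Deviations of same-numbered libraries from their group means correlated at -0.03 to 0.21. The highest correlation with a library of another number was -0.09 to 0.07. It exceeded the same-numbered value for replicate 1 with amiodarone, replicate 3 for HPbCD added to amiodarone and replicate 2 with both agents. For all other replicates it was lower. Whether a number marks a shared culture or day was not tested. As a block, the replicate numbers moved the count for HPbCD added to amiodarone from 0 to 1. They also put CERS6 past the test between the lines (adjusted p = 0.0375 by limma).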
